A study of Arabidopsis thaliana with 12 samples.

Results

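RNA sequencing of prt6 mutant seedlings was compared between plants that keep their ERFVII transcription factors and plants that lack all of them. The comparison used 8 of the 12 libraries of the series, the 4 labelled prt6-1 (here prt6) and the 4 labelled prt6-1erfvii (here prt6 erfVII), chosen by genotype alone, and positive log2 fold changes mean higher in prt6. Both genotypes are in the Col-0 background and carry the prt6-1 mutation, and prt6 erfVII carries insertions in HRE1, HRE2, RAP2.3, RAP2.2 and RAP2.12 in addition, and each genotype is given as 1 line. The 4 Col-0 wild-type libraries served as a further reference. All libraries came from total seedlings of 7 days, grown in continuous light on agar plates and harvested untreated. The plates held Murashige and Skoog medium without sucrose, which according to the paper was below full strength. Each library is labelled as a biological replicate.

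Group VII ethylene response factors (ERFVIIs) are transcription factors that activate genes for life without oxygen. In air, plant cysteine oxidases (PCOs) oxidise the amino-terminal cysteine of ERFVIIs, arginyl transferases add an arginine, and the E3 ligase PRT6 then directs them to the proteasome. Without PRT6 the ERFVIIs persist in air, so the comparison asks which transcripts differ in this background when ERFVIIs are removed, whether or not they are direct targets.

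The libraries held between 23156637 and 30582461 counts on genes. Replicates differed by more than counting noise, and chi-square per degree of freedom between pairs of prt6 libraries was 12.5 to 15.7 for those with replicate 4, against 5.21 to 5.92 among the others. Between pairs of prt6 erfVII libraries it was 5.23 to 11.8, the last between replicates 1 and 3. The mutated loci were first read as a check of the labels. HRE1 had 5.88, 6.05, 5.73 and 5.08 CPM (counts scaled to library size) in prt6, against no counts in any prt6 erfVII library. RAP2.12 and RAP2.2 were still transcribed in prt6 erfVII, with log2 fold changes of 0.93 ± 0.07 and 0.89 ± 0.06 (SE). PRT6 itself had 45.2 to 76.5 CPM in prt6, against 7.21 to 10.1 CPM in prt6 erfVII and 56.2 to 65.2 CPM in Col-0. Libraries labelled prt6 were thus no lower in PRT6 transcript than the wild type (log2 fold change 0.04 ± 0.15), although the labels give the same prt6 allele to both mutant genotypes, and counts over a whole gene cannot show where a transcript is interrupted. The name prt6 below stands for the libraries labelled so. Markers of root, leaf and vascular cells were all detected, and the floral markers AP1, AP3 and AG had too few counts to test.

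Of 20857 genes tested, 31.3% were called at an adjusted p under 0.05 in the quasi-likelihood test of edgeR, with p-values adjusted over the whole table by the method of Benjamini and Hochberg. Genes higher in prt6 made up 14.7% and genes lower in prt6 made up 16.6%. Most differences were small, since 5.34% of genes were both called and changed by over 1 log2 unit, and the median absolute log2 fold change of called genes was 0.47. In numbers, 595 genes were called higher and 518 called lower by over 1 log2 unit. With a share called as large as this, a list is described here by how far its counts depart from these percentages. Where a list below had 0 members called in a direction, DESeq2 also called 0 of the same members, and any members with an unadjusted edgeR p under 0.05 are counted beside it. In the comparison of prt6 with Col-0, which shares the prt6 libraries, 2.18% of 20899 genes were called, 1.09% higher and 1.09% lower in prt6. That count rested on single libraries: 1231 genes were called without prt6 replicate 4 and 281 without Col-0 replicate 2, against 455 with all of them. In whole seedlings, fewer cells of a type and less RNA per cell cannot be told apart.

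**Figure D1:**
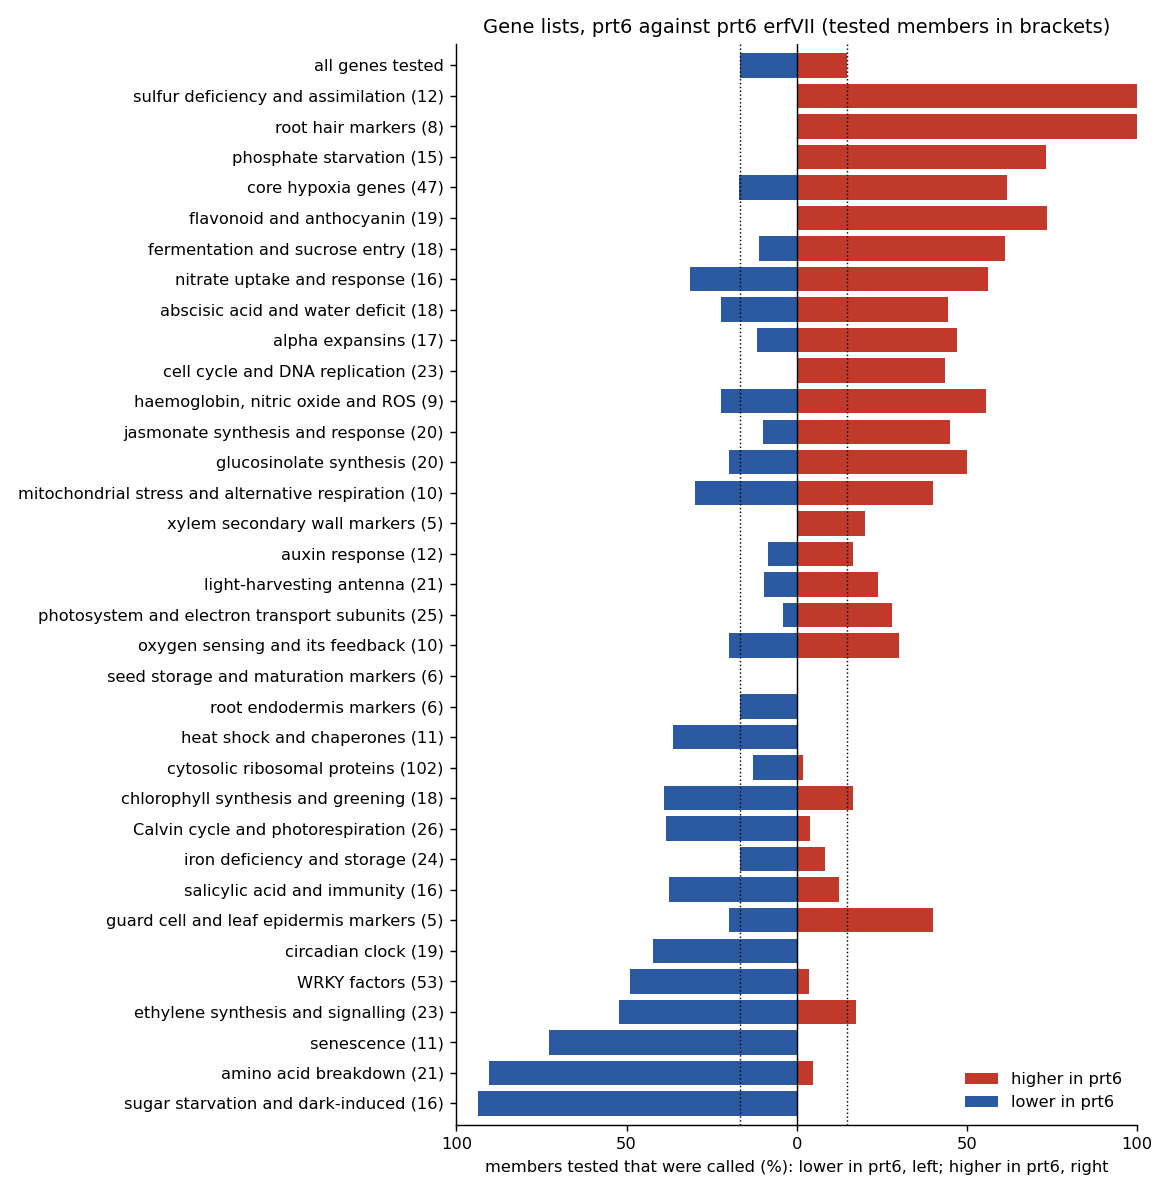
Percentage of the tested members of each gene list that were called higher in prt6 (red, to the right) or lower in prt6 (blue, to the left) against prt6 erfVII, ordered by the median log2 fold change of the list, with the number of tested members in brackets. Dotted lines mark the percentages over all genes tested, 14.7% higher and 16.6% lower. All tested members of the sulfur and root hair lists were called higher, and 15 of 16 sugar starvation genes were called lower.

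Core hypoxia genes, a set induced by low oxygen across cell types, differed in both comparisons. Of 47 members tested, 29 were higher and 8 were lower in prt6 than in prt6 erfVII, with a median log2 fold change of 0.60, against a median of -0.00088 over all genes tested. In prt6 against Col-0, 29 of 47 were higher and 0 lower, with a median of 0.76. This list was drawn up elsewhere from low-oxygen experiments and overlaps the fermentation list in several genes. It also holds HRE2, which carries an insertion in prt6 erfVII. The call of HRE2 against prt6 erfVII, 1 of the 29, is therefore not separate from the mutation.

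The genes of oxygen sensing came first, because they feed back on the ERFVIIs. PCO1, one of the cysteine oxidases that mark ERFVIIs for destruction, had 74.0, 70.8, 75.8 and 80.8 CPM in prt6, against 2.04, 4.28, 3.32 and 3.48 CPM in prt6 erfVII and 1.34 to 3.22 CPM in Col-0. PCO2 had 22.6 to 33.5 CPM in prt6, against 0.685 to 1.07 CPM in prt6 erfVII. Neither gene's prt6 libraries overlapped those of prt6 erfVII. PCO3 and PCO4, which are among the oxidases not induced by hypoxia, had log2 fold changes of 0.02 ± 0.10 and -0.06 ± 0.10 and were not called. HRA1, a trihelix factor that binds RAP2.12 and restrains it, was 1.88 ± 0.11 log2 units higher in prt6 (edgeR adjusted p = 5.7e-10). The arginyl transferase ATE1 was lower by a small margin, with 21.7 to 23.1 CPM in prt6 and 24.5 to 27.8 CPM in prt6 erfVII (edgeR adjusted p = 0.0077). Its partner ATE2 was not called (0.06 ± 0.13). VRN2 and ZPR2, which like ERFVIIs are proteins degraded through a terminal cysteine, were not called at the transcript level, with log2 fold changes of -0.04 ± 0.09 and 0.55 ± 0.40. PCO5 was called lower by 0.31 on the log2 scale, a call that was lost without prt6 erfVII replicate 4 (edgeR adjusted p = 0.1).

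The promoter of PCO1 is printed because it is the only core hypoxia gene whose window from 250 bases before to 50 bases after the transcription start held an exact match of the hypoxia-responsive promoter element (HRPE), the sequence bound by RAP2.2 and RAP2.12. The window lies on the plus strand of chromosome 5 at chr5:4898391-4898690 (TAIR10.1, RefSeq), and the capitals mark the HRPE, which starts 9 bases after the start site.
PCO1: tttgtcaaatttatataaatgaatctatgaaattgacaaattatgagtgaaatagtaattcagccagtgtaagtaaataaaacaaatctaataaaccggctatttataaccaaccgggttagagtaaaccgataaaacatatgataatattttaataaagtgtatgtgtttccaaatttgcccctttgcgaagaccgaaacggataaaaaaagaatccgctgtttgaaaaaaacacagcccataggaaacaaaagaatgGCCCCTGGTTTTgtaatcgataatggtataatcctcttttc
On both strands, 5 of 20855 promoter windows of tested genes held an exact HRPE. Of these, 2 belonged to the 3055 windows of genes called higher (PCO1 and AT5G40670) and 0 to the 3467 windows of genes called lower. With at most 1 mismatch allowed, 9 of 47 core hypoxia windows (19.1%) held the element, against 0.65% of all 20855 windows, 0.88% of those of genes called higher and 0.75% of those of genes called lower. A match is a description of the letters and not a measured binding site. According to the paper, the HRPE had been identified earlier in the promoter of LBD41, which is itself on the core hypoxia list. The list is thus not independent of how the element was found, although LBD41 is not among the 9 genes. How far this accounts for the share of 19.1% was not tested.

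Fermentation keeps glycolysis running when respiration stops, and the list of enzymes from sucrose to ethanol had 11 of 18 members higher and 2 lower in prt6 (median log2 fold change 0.41), against 6 higher and 0 lower in prt6 against Col-0 (median 0.22). SUS4, a sucrose synthase that opens sucrose for glycolysis, had 20.7, 16.3, 20.2 and 15.3 CPM in prt6, against 1.15, 1.54, 1.62 and 1.44 CPM in prt6 erfVII and 2.87 to 3.58 CPM in Col-0. PDC1 and ADH1, the enzymes that turn pyruvate into ethanol, were 2.38 ± 0.11 and 3.25 ± 0.13 log2 units higher in prt6. PDC1 had 21.4 to 29.1 CPM in prt6, against 4.24 to 4.97 CPM in prt6 erfVII and 5.57 to 7.57 CPM in Col-0. The alanine aminotransferase ALAAT1 moved the other way, with 127 to 145 CPM in prt6 and 156 to 162 CPM in prt6 erfVII (log2 fold change -0.23 ± 0.06, edgeR adjusted p = 0.0066). ALDH2B4, an aldehyde dehydrogenase of the bypass from pyruvate to acetate, was also lower in prt6 (-0.40 ± 0.06). ADH1 overlaps a gene on the opposite strand, and the strand setting of the counting is not given in the sources used here.

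SAD6, a stearoyl-acyl carrier protein desaturase of the plastid, had 93.7, 73.2, 74.3 and 108 CPM in prt6, against 1.23, 1.24, 2.53 and 1.27 CPM in prt6 erfVII and 3.11 to 5.40 CPM in Col-0. LBD41, a LOB-domain transcription factor named here after its values were seen, was 3.16 ± 0.11 log2 units higher in prt6 than in prt6 erfVII. GLB1, a phytoglobin that scavenges nitric oxide, had 66.7 to 87.0 CPM in prt6 and 5.18 to 6.88 CPM in prt6 erfVII. AT3G03270, which encodes a universal stress protein, had 104 to 130 CPM in prt6 and 19.3 to 23.7 CPM in prt6 erfVII. Both genes of nitrate reductase, a source of nitric oxide and of nitrite, were lower in prt6. NIA1 had 390, 333, 421 and 322 CPM in prt6, against 666, 709, 658 and 717 CPM in prt6 erfVII, and NIA2 had 1330 to 1500 CPM in prt6 and 2192 to 2373 CPM in prt6 erfVII. In Col-0 both lay at the level of prt6, with log2 fold changes of prt6 against Col-0 of -0.04 for NIA1 and -0.00 for NIA2.

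**Figure D2:**
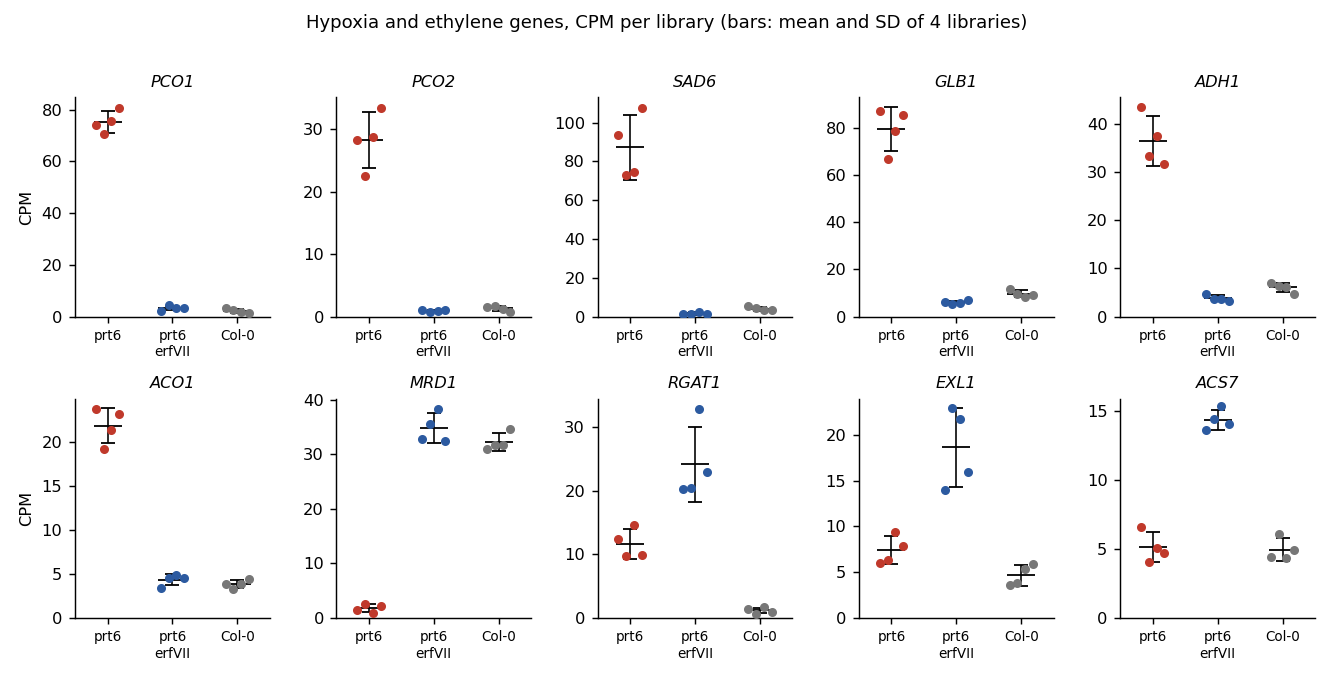
CPM in each library (points) with the mean and SD of 4 libraries (black) for genes of the hypoxia and ethylene lists and MRD1, each panel with its own linear axis from 0, for prt6, prt6 erfVII and Col-0. PCO1, PCO2, SAD6, GLB1, ADH1 and ACO1 were high in prt6 alone, MRD1 was low in prt6 alone, RGAT1 was high in both mutants, and EXL1 and ACS7 were highest in prt6 erfVII.

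The core hypoxia genes that were lower in prt6 did not follow the wild type in the same way. RGAT1 had 12.3, 9.67, 14.6 and 9.87 CPM in prt6, against 20.3, 20.5, 32.9 and 23 CPM in prt6 erfVII and only 0.591 to 1.64 CPM in Col-0. All libraries of both mutants lay above those of Col-0, and those of prt6 lay below those of prt6 erfVII. UKL3, a uridine kinase-like gene, and AtPP2-A13, an F-box protein with a phloem lectin domain, were lower in prt6 by 1.08 and 1.23 on the log2 scale, with prt6 near Col-0 in each (log2 fold changes 0.17 and 0.31, not called). EXL1, which is also on the sugar starvation list, had 6.03 to 9.42 CPM in prt6, 13.9 to 22.9 CPM in prt6 erfVII and 3.57 to 5.88 CPM in Col-0. AT4G39675 and ETR2, named here after their values were seen, were called in prt6 against Col-0 (3.67 and 0.76) but not against prt6 erfVII (0.58 ± 0.26 and 0.15 ± 0.10).

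Ethylene promotes ERFVII action and is made from aminocyclopropane carboxylate (ACC) by ACC oxidases after ACC synthases have made the precursor. Of 23 ethylene genes tested, 4 were higher and 12 lower in prt6 (median log2 fold change -0.35), and 4 were higher and 1 lower in prt6 against Col-0 (median 0.05). The ACC oxidases split by member. ACO1, a core hypoxia gene, had 23.7, 19.2, 21.3 and 23.1 CPM in prt6, against 3.41, 4.54, 4.80 and 4.48 CPM in prt6 erfVII. AT1G12010, a further ACC oxidase gene, and ACO5 were lower in prt6 by 1.36 and 0.72 on the log2 scale. Among the synthases, ACS7 had 4.02 to 6.61 CPM in prt6 and 13.6 to 15.3 CPM in prt6 erfVII, whereas ACS6 was higher in prt6 (0.56 ± 0.14, edgeR adjusted p = 0.0072). ERS1, an ethylene receptor, and EIN3, the main transcription factor of the pathway, were lower by 0.60 and 0.35 on the log2 scale and were named here after their values were seen. EBF1, an F-box protein that removes EIN3, was higher in prt6 (0.34 ± 0.07).

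Of the 36 lists, sugar starvation had the lowest median log2 fold change in prt6 against prt6 erfVII. Plants short of carbon turn on DARK INDUCIBLE (DIN) genes under the kinase SnRK1 and its bZIP partners, which free carbon and nitrogen from stores. Of 16 sugar starvation and dark-induced genes, 0 were higher and 15 were lower in prt6 (median log2 fold change -1.63). In prt6 against Col-0 the same list had 2 members higher and 1 lower with a median of 0.05, so the level in prt6 was near the wild type and the level in prt6 erfVII stood apart. The seedlings had grown in continuous light.

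ASN1, an asparagine synthetase also known as DIN6, had 11.9, 9.28, 18.1 and 6.01 CPM in prt6, against 319, 273, 355 and 340 CPM in prt6 erfVII and 4.42 to 10.3 CPM in Col-0. The log2 fold change was -4.84 ± 0.33 (edgeR adjusted p = 4.6e-05), and it was among the 10 genes furthest below prt6 erfVII over the whole table. ASN1 overlaps an antisense gene on the opposite strand. DIN1, also known as SEN1, had 24.6, 16.7, 29.8 and 17.3 CPM in prt6, against 230, 233, 322 and 263 CPM in prt6 erfVII and 23 to 32.7 CPM in Col-0. DIN10, a raffinose synthase gene, had 299, 263, 373 and 257 CPM in prt6, against 1215, 1257, 1418 and 1336 CPM in prt6 erfVII. No library of prt6 reached the lowest library of prt6 erfVII in any of the 15 genes called, a pattern that held for 15.9% of all genes tested.

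The promoter of ASN1 is printed because it is the starvation gene with the largest difference and holds the G-box CACGTG, the core bound by bZIP and bHLH factors, at 2 places. The window is on the minus strand at chr3:17441382-17441681 (TAIR10.1, RefSeq), is written 5′ to 3′ along that strand, and has the G-boxes in capitals.
ASN1: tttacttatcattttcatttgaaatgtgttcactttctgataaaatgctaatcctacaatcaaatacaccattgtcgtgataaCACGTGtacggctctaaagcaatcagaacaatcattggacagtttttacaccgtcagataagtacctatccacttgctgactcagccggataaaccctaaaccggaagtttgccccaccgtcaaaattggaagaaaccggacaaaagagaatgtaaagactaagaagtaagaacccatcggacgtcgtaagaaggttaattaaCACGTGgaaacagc
A G-box was found in 9.33% of windows of genes called higher, in 9.40% of those called lower and in 8.66% of all 20855 windows (the motif reads the same on both strands), so its share differed little by direction. In the sugar starvation list 2 of 16 windows held it.

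Other parts of the starvation programme moved with ASN1. DIN2, a beta-glucosidase, had 1.02 to 1.79 CPM in prt6, against 15.3 to 24.9 CPM in prt6 erfVII. The bZIP factors BZIP1 and BZIP63 and the SnRK1 subunit AKINBETA1 were lower in prt6 by 1.62, 1.09 and 1.28 on the log2 scale. The class II trehalose phosphate synthase genes TPS8, TPS9, TPS10 and TPS11 were lower by 1.24, 1.63, 1.2 and 1.78, and ATG8E, an autophagy gene, by 0.93. These genes were named after their values were seen. DIN11 was the member not called (-0.34 ± 0.33). MIOX4, a myo-inositol oxygenase outside the list, had 2.00, 0.677, 2.27 and 1.19 CPM in prt6, against 29.7, 27.5, 35.7 and 33.2 CPM in prt6 erfVII and 0.696 to 1.17 CPM in Col-0.

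Breakdown of amino acids gave the same picture. Branched-chain amino acids are first deaminated and decarboxylated by a dehydrogenase complex and then oxidised in mitochondria, where they can feed electrons to respiration when sugar is short. Of 21 breakdown genes tested, 1 was higher and 19 were lower in prt6 (median log2 fold change -1.0), against 1 higher and 0 lower in prt6 against Col-0 (median -0.01). BCAT2, the aminotransferase of the first step, had 5.88, 3.26, 8.81 and 4.04 CPM in prt6, against 82.3, 77.0, 98.2 and 84.5 CPM in prt6 erfVII and 2.49 to 7.31 CPM in Col-0. AT1G21400, a subunit of the branched-chain dehydrogenase, had 23.5 to 28.7 CPM in prt6 and 159 to 189 CPM in prt6 erfVII. The groups were far apart at each of these steps. MCCA, which carboxylates methylcrotonyl-CoA from leucine, and IVD, which oxidises isovaleryl-CoA, were lower by 2.06 and 1.74 on the log2 scale. The exception was BCE1A2, with 10.8 to 12.7 CPM in prt6 and 6.55 to 8.91 CPM in prt6 erfVII (log2 fold change 0.59 ± 0.11).

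The enzymes that release nitrogen were named after their values were seen. GDH2, a glutamate dehydrogenase, had 208, 175, 203 and 174 CPM in prt6, against 536, 553, 633 and 584 CPM in prt6 erfVII and 194 to 208 CPM in Col-0. PRODH1, which begins proline oxidation, had 242 to 304 CPM in prt6, 770 to 871 CPM in prt6 erfVII and 143 to 153 CPM in Col-0, and was the breakdown gene that was also higher in prt6 than in the wild type (0.87).

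**Figure D3:**
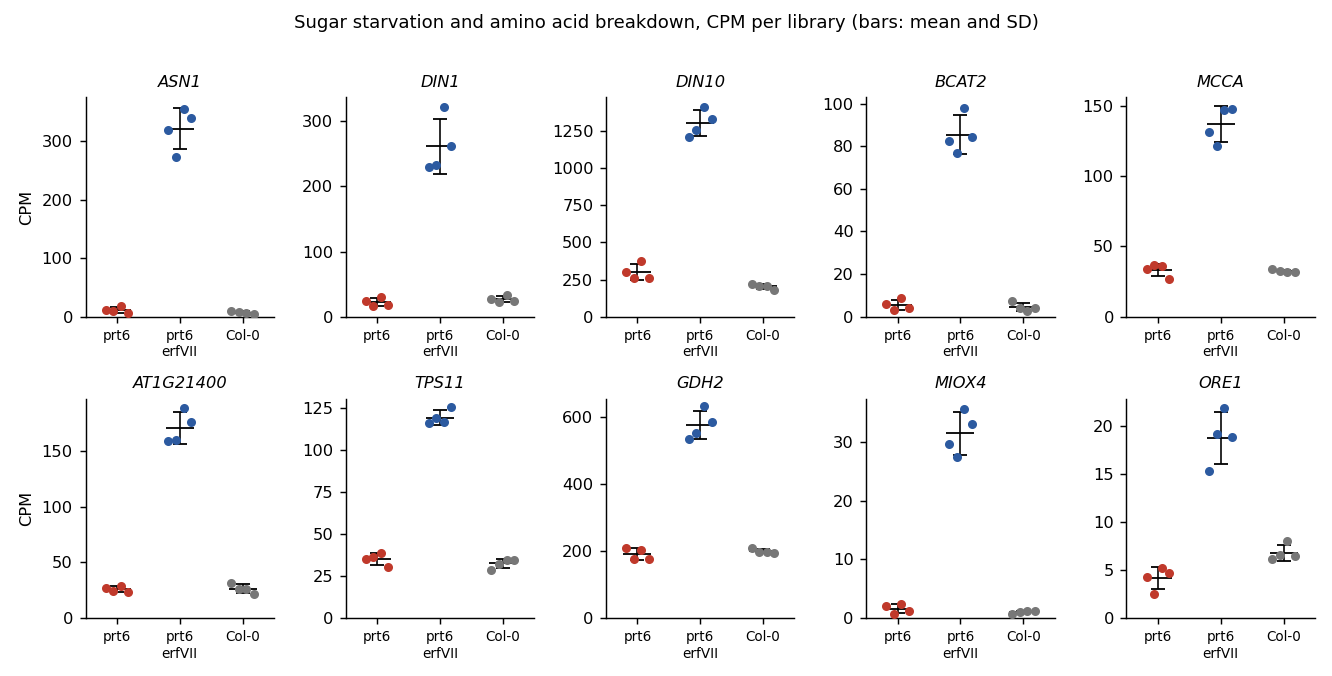
CPM in each library (points) with the mean and SD of 4 libraries (black) for genes of sugar starvation, amino acid breakdown and senescence and MIOX4, each panel with its own linear axis from 0. In every panel the 4 prt6 erfVII libraries lie above all prt6 and Col-0 libraries, as for ASN1, with 6.01 to 18.1 CPM in prt6, 273 to 355 CPM in prt6 erfVII and 4.42 to 10.3 CPM in Col-0.

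Senescence regulators and nutrient-linked transcription factors lay on the same side. Of 11 senescence genes tested, 0 were higher (1 at an unadjusted p under 0.05) and 8 lower in prt6 (median log2 fold change -0.52), and 2 were lower in prt6 against Col-0. ORE1, a NAC factor that promotes leaf senescence, had 4.29, 2.51, 5.17 and 4.71 CPM in prt6, against 15.2, 19.1, 21.9 and 18.8 CPM in prt6 erfVII and 6.14 to 8.02 CPM in Col-0. SAG21 and ORS1 were lower in prt6 by 1.05 and 0.68 on the log2 scale. Of 53 WRKY factors, a family tied to defence and senescence and taken here by gene name, 2 were higher and 26 lower in prt6 (median -0.29), against 1 higher and 0 lower (1 at an unadjusted p under 0.05) in prt6 against Col-0. WRKY45 had 2.49 to 3.74 CPM in prt6 and 8.98 to 15.4 CPM in prt6 erfVII, and WRKY26 had 5.17 to 7.19 CPM in prt6 and 13.6 to 19.7 CPM in prt6 erfVII. TTG2, the WRKY factor of trichome and seed coat development, went the other way, with 4.62 to 6.03 CPM in prt6 and 1.83 to 3.3 CPM in prt6 erfVII. The second WRKY call upward was WRKY74, which was lost without any of prt6 replicates 1 and 4 and prt6 erfVII replicates 1 and 4 (largest edgeR adjusted p = 0.074). The ABA-responsive NAC factor RD26 had 9.08 to 11.2 CPM in prt6 and 26.5 to 43.5 CPM in prt6 erfVII.

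Sulfur deficiency genes were higher in prt6 throughout. Plants short of sulfate raise uptake, reduction and recycling of sulfur and curb glucosinolates. All 12 genes of the list were tested and called higher in prt6 (median log2 fold change 1.78), and 0 were called in prt6 against Col-0 (median 0.18), where 3 were higher at an unadjusted p under 0.05. SDI1, a repressor of glucosinolate synthesis under low sulfate, had 51.5, 67.9, 35.8 and 70.9 CPM in prt6, against 4.34, 2.44, 3.01 and 3.61 CPM in prt6 erfVII and 31.1 to 40.2 CPM in Col-0. LSU1 had 48.8, 51.4, 29.8 and 68.3 CPM in prt6, against 5.83, 5.26, 5.98 and 5.61 CPM in prt6 erfVII and 28.6 to 39.0 CPM in Col-0. BGLU28, a beta-glucosidase that can release sulfur from glucosinolates, had 10.3 to 22.5 CPM in prt6 and 0.599 to 1.63 CPM in prt6 erfVII. In these genes prt6 replicate 3 was the lowest of its group, yet remained above every prt6 erfVII library. GGCT2;1, which recycles glutathione, was 3.02 ± 0.21 log2 units higher in prt6.

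Sulfate transporters and adenylyl sulfate reductases, named after their values were seen, had smaller shifts than SDI1, LSU1, BGLU28 and GGCT2;1. The sulfate transporters SULTR1;1, SULTR4;2 and SULTR1;2 had log2 fold changes of 1.99, 1.56 and 0.65. The adenylyl sulfate reductases APR1, APR3 and APR2 had log2 fold changes of 1.11, 0.88 and 0.66, and APR2 for example had 386 to 488 CPM in prt6 and 254 to 276 CPM in prt6 erfVII.

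Glucosinolate genes, whose products hold much of the sulfur of the seedling, showed small shifts. Of 20 tested, 10 were higher and 4 lower in prt6 than in prt6 erfVII (median log2 fold change 0.18), while 1 was higher and 13 were lower in prt6 than in Col-0 (median -0.39). MYB28, a regulator of aliphatic glucosinolates, had 49.4 to 51.2 CPM in prt6, 33.2 to 36.5 CPM in prt6 erfVII and 55.2 to 62.8 CPM in Col-0. MYB51, a regulator of indolic glucosinolates, had 13.8 to 15.4 CPM in prt6, 19.1 to 21.6 CPM in prt6 erfVII and 9.62 to 12.3 CPM in Col-0. Only 2 were called lower without prt6 replicate 1, without prt6 replicate 2 or without prt6 erfVII replicate 4.

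Anthocyanins are red pigments made from chalcones under the control of MYB, bHLH and WD40 factors. Of 19 flavonoid and anthocyanin genes tested, 14 were higher and 0 lower in prt6 (median log2 fold change 0.46, or 0.81 without prt6 erfVII replicate 2), and 0 were called in prt6 against Col-0 (median 0.02). The size depended on the step of the pathway. CHS and CHI, the first enzymes of flavonoid synthesis, had log2 fold changes of -0.01 ± 0.07 and 0.01 ± 0.07. DFR, the first enzyme that leads to anthocyanin, had 33.2, 36.6, 13.6 and 27.6 CPM in prt6, against 4.94, 6.08, 2.66 and 5.51 CPM in prt6 erfVII and 29.5 to 47.6 CPM in Col-0. LDOX, the next enzyme, had 26.9, 33.2, 13.3 and 27.7 CPM in prt6, against 5.64, 4.32, 3.23 and 5.18 CPM in prt6 erfVII. PAP1, the MYB factor that switches the late genes on, had 1.13 to 5.29 CPM in prt6 and 0.262 to 0.514 CPM in prt6 erfVII (log2 fold change 3.02 ± 0.43, edgeR adjusted p = 8.7e-05). The lowest prt6 library was replicate 3 for each of these late genes, and it lay above all prt6 erfVII libraries.

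The promoter of DFR is printed because G-boxes were frequent in this list, in 7 of 19 windows (CHI, CHIL, CHS, DFR, F3H, MYB12 and PAP2) against 8.66% of all windows. They were also found in 8 of 19 windows of the circadian clock list and in 10 of 25 windows of photosystem subunits. The DFR window lies on the minus strand at chr5:17165983-17166282 (TAIR10.1, RefSeq), with the G-boxes in capitals.
DFR: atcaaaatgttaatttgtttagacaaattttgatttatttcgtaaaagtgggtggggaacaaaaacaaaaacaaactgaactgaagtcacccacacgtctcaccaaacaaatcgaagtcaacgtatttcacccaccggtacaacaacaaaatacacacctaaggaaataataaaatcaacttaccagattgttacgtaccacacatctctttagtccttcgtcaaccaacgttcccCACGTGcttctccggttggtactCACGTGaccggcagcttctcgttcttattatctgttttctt
The motif occurred in genes of the list that differed (DFR) and in genes that were not called (CHS, CHI and MYB12).

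Root hair genes were higher in prt6. The 8 markers of root hairs, single cells that widen the absorbing surface of the root, were all called higher, with a median log2 fold change of 1.35, and 0 were called in prt6 against Col-0 (median 0.31), where 5 were higher at an unadjusted p under 0.05. Their summed level was 66.0 to 72.3 CPM in prt6, 19.7 to 26.6 CPM in prt6 erfVII and 46.8 to 63.7 CPM in Col-0. PRP3, a cell wall protein of root hairs, had 25.7, 22.2, 26.6 and 26.1 CPM in prt6, against 7.57, 7.23, 7.69 and 5.51 CPM in prt6 erfVII. PRP1 had 8.13 to 9.36 CPM in prt6 and 0.770 to 2.27 CPM in prt6 erfVII. RSL4, a bHLH factor that drives hair elongation, was also higher in prt6 (1.47 ± 0.33, edgeR adjusted p = 0.0021).

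The summed level of 6 root endodermis markers was 75.4 to 92.8 CPM in prt6 and 77.0 to 87.3 CPM in prt6 erfVII, and that of 5 xylem markers was 129 to 136 CPM in prt6 and 116 to 130 CPM in prt6 erfVII. The 5 markers of guard cells and leaf epidermis summed to 1421 to 1673 CPM in prt6 and 1224 to 1344 CPM in prt6 erfVII, a sum made mostly of TGG1, and by gene 2 of the 5 were higher and 1 lower (median log2 fold change -0.15). Among 17 alpha expansins, which loosen cell walls, 8 were higher and 2 lower in prt6 (median log2 fold change 0.32). They include EXPA7 and EXPA18 of root hairs and EXPA4, which had 93.9 to 121 CPM in prt6 and 48.7 to 56.2 CPM in prt6 erfVII. Whether the number of root hairs differed was not tested.

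Phosphate starvation genes moved in the same direction as the sulfur genes. Of 15 tested, 11 were higher and 0 lower in prt6 (median log2 fold change 0.80), against 1 higher and 0 lower in prt6 against Col-0 (median 0.26). The noncoding RNA AT4, which holds back miR399, had 23.2, 20.8, 20.1 and 26.8 CPM in prt6, against 7.64, 6.08, 8.12 and 7.75 CPM in prt6 erfVII. MGD2, a galactolipid synthase that spares phosphate, and PS2, a phosphatase, were 1.13 ± 0.14 and 1.96 ± 0.31 log2 units higher in prt6. The phosphate transporter PHT1;1 did not pass the test, with 58.7 to 68.1 CPM in prt6 and 54.8 to 66.7 CPM in prt6 erfVII.

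Nitrate genes went both ways, with 9 of 16 higher and 5 lower in prt6 (median log2 fold change 0.41), and 1 higher and 0 lower in prt6 against Col-0. RFNR2, which supplies electrons for nitrite reduction in roots, had 191, 174, 128 and 148 CPM in prt6, against 69.2, 64.3, 58.3 and 61.1 CPM in prt6 erfVII. NRT1.5, which loads nitrate into the xylem, had 199 to 235 CPM in prt6, 123 to 151 CPM in prt6 erfVII and 118 to 129 CPM in Col-0, and was the gene also called in prt6 against Col-0. Its counterpart NRT1.8, which unloads nitrate, had 2.59 to 5.52 CPM in prt6 and 8.43 to 11.6 CPM in prt6 erfVII. LBD38 and LBD39, repressors of anthocyanin synthesis and nitrate uptake, were lower in prt6 by 0.62 and 0.75 on the log2 scale.

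**Figure D4:**
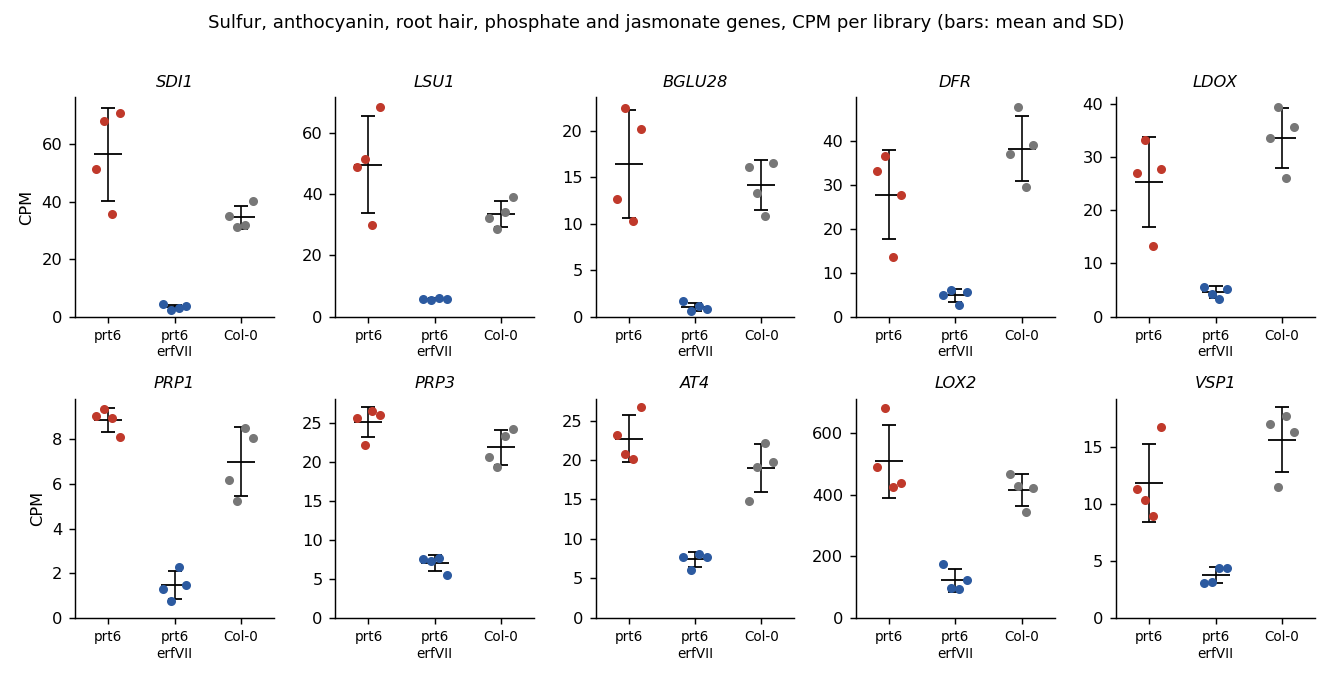
CPM in each library (points) with the mean and SD of 4 libraries (black) for genes of the sulfur (SDI1, LSU1, BGLU28), anthocyanin (DFR, LDOX), root hair (PRP1, PRP3), phosphate (AT4) and jasmonate (LOX2, VSP1) lists, each panel with its own linear axis from 0. In each panel the 4 prt6 libraries lie above all prt6 erfVII libraries, for example 35.8 to 70.9 CPM in prt6 and 2.44 to 4.34 CPM in prt6 erfVII for SDI1, and the Col-0 libraries lie near those of prt6.

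Jasmonate genes were partly higher in prt6. Of 20 tested, 9 were higher and 2 lower (median log2 fold change 0.22), and 0 of 19 were called in prt6 against Col-0, where 1 was higher and 1 lower at an unadjusted p under 0.05. LOX2, the lipoxygenase of chloroplasts that starts jasmonate synthesis, had 489, 682, 425 and 438 CPM in prt6, against 173, 98.1, 93.0 and 123 CPM in prt6 erfVII. The vegetative storage protein gene VSP1, a jasmonate target, had 8.88 to 16.7 CPM in prt6 and 3.08 to 4.38 CPM in prt6 erfVII. The repressors JAZ9 and JAZ1 were lower by 0.56 and 0.39 on the log2 scale. Abscisic acid and water deficit genes were split, with 8 of 18 higher and 4 lower in prt6 (median 0.36). NCED3, the rate-limiting enzyme of abscisic acid synthesis, had 3.75 to 4.26 CPM in prt6 and 1.66 to 2.75 CPM in prt6 erfVII, and COR15A, a cold-regulated protein of chloroplasts, was 2.01 ± 0.25 log2 units higher in prt6.

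Genes of the circadian clock had 0 of 19 higher (1 at an unadjusted p under 0.05) and 8 lower in prt6 (median log2 fold change -0.22, or -0.13 without prt6 replicate 1), and 2 were called higher without prt6 replicate 4. Those named here belong to the morning phase. RVE1 had 37.3, 31.6, 38.7 and 40.3 CPM in prt6, against 67.9, 77.3, 74.3 and 73.4 CPM in prt6 erfVII and 32.2 to 45.3 CPM in Col-0. CCA1 had 51.5 to 68.3 CPM in prt6 and 82.3 to 103 CPM in prt6 erfVII, and PRR7 and RVE4 were lower by 0.84 and 0.73 on the log2 scale. Plants in continuous light have no daily reset, and the hour of harvest of each genotype is not given in the sources used here.

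Antenna and photosystem genes were mostly not called between the mutants and mostly lower in prt6 than in Col-0. Of 21 light-harvesting antenna genes, 5 were higher and 2 lower in prt6 than in prt6 erfVII (median log2 fold change 0.09), whereas 0 were higher and 16 lower in prt6 than in Col-0 (median -0.35). Of 25 photosystem and electron transport subunits, 7 were higher and 1 lower in prt6 than in prt6 erfVII (median 0.06), and 0 were higher and 17 lower in prt6 than in Col-0 (median -0.23). The 7 photosystem calls fell to 4 without prt6 erfVII replicate 1 or replicate 4, and the call downward was lost without any of 6 libraries (all but prt6 replicate 4 and prt6 erfVII replicate 1). LHCB2.3, an antenna protein of photosystem II, had 591 to 740 CPM in prt6, 345 to 534 CPM in prt6 erfVII and 942 to 1103 CPM in Col-0. Of 18 chlorophyll synthesis and greening genes, 3 were higher and 7 lower in prt6 than in prt6 erfVII (median log2 fold change -0.10). In prt6 against Col-0, 0 were higher and 5 lower. PORB, a protochlorophyllide oxidoreductase, was 0.68 ± 0.07 log2 units higher in prt6 than in prt6 erfVII. GLK1, a factor that drives chloroplast genes, was 0.61 ± 0.06 log2 units higher. HEMA1, which commits glutamate to tetrapyrroles, GLK2, CHLI1 and CHLM were lower (log2 fold changes -0.46, -0.35, -0.31 and -0.29). Of 26 Calvin cycle and photorespiration genes, 1 was higher and 10 lower in prt6 (median -0.10). The call upward, AT1G56190, was lost without any 1 of 7 libraries (all but prt6 replicate 4). Without prt6 replicate 4, 13 were lower. Among the genes called lower AGT1, a photorespiratory aminotransferase, had 1080 to 1225 CPM in prt6 and 1657 to 1826 CPM in prt6 erfVII.

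**Figure D5:**
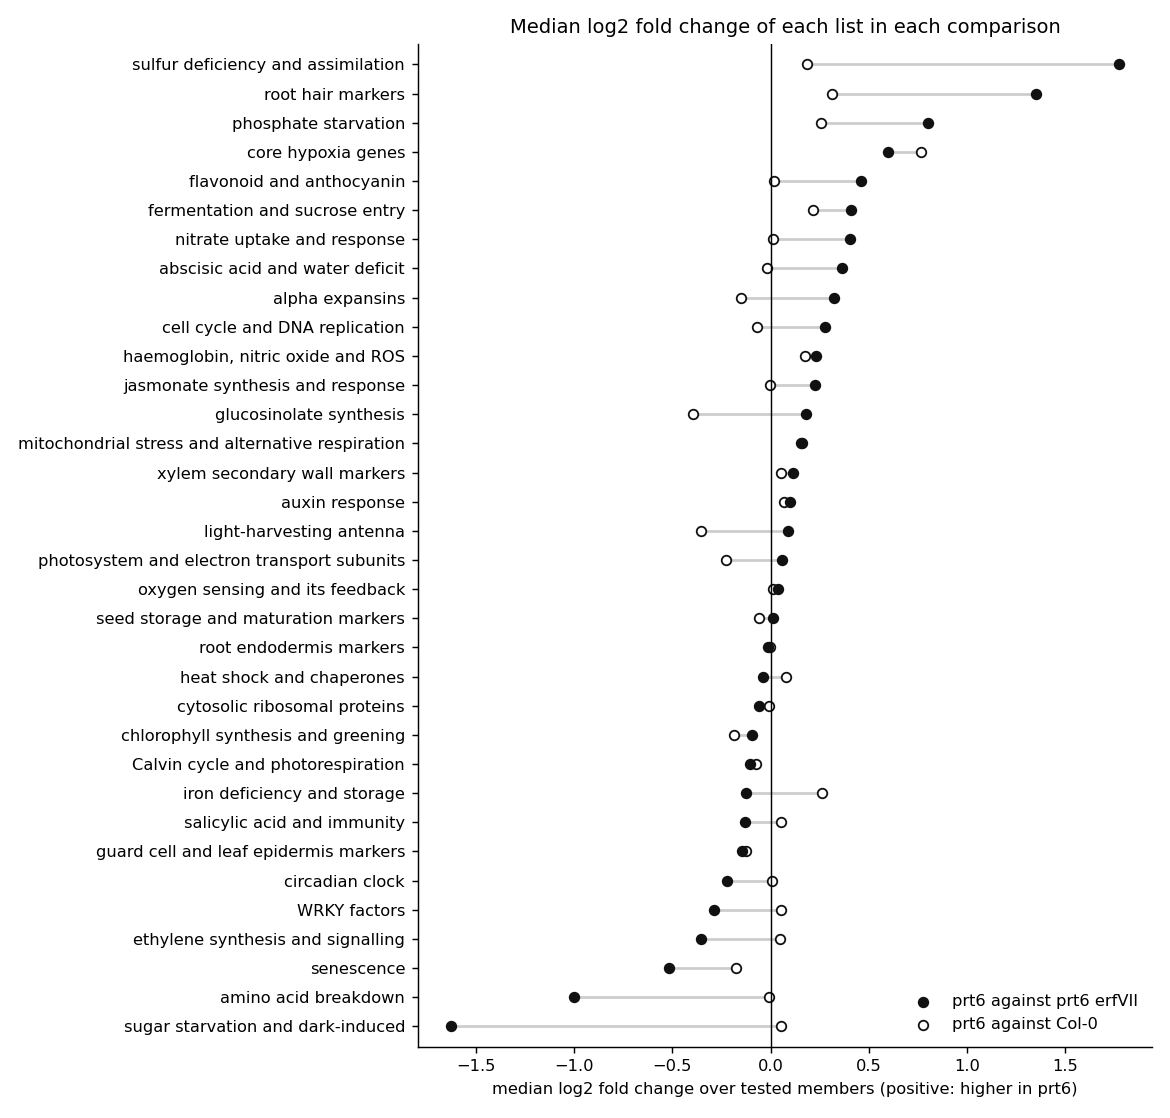
Median log2 fold change over the tested members of each list in prt6 against prt6 erfVII (filled circles) and in prt6 against Col-0 (open circles), with a line joining the pair. The comparisons share the prt6 libraries. The medians of the hypoxia list lie at 0.60 and 0.76, while those of the sulfur list lie at 1.78 and 0.18 and those of sugar starvation at -1.63 and 0.05.

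Of 23 cell cycle and DNA replication genes, 10 were higher and 0 lower in prt6 (median log2 fold change 0.28), and 6 were higher without prt6 erfVII replicate 4. CYCB2;1, a mitotic cyclin, had 2.91 to 3.26 CPM in prt6 and 1.67 to 2.00 CPM in prt6 erfVII. Of 102 cytosolic ribosomal protein genes, taken by gene name, 2 were higher and 13 lower in prt6 (median -0.06). The lower count was 28 without prt6 replicate 4 and 8 without prt6 erfVII replicate 4. AT4G26230 stood out, with 135, 122, 126 and 132 CPM in prt6, against 33.0, 42.9, 41.0 and 39.2 CPM in prt6 erfVII. Iron genes were mostly not called, with 2 of 24 higher and 4 lower in prt6. The ferritin FER1, which stores iron, had 52.1 to 77.8 CPM in prt6 and 139 to 170 CPM in prt6 erfVII.

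Several of the genes furthest apart had almost no counts in 1 genotype, so folds against it are lower bounds, set with 3 counts per library as the limit of counting. AT3G29970, which encodes a B12D protein, had 4.98, 4.90, 4.81 and 2.82 CPM in prt6 and no counts in prt6 erfVII, which makes it at least 37.2-fold higher in prt6. IDH-III, an isocitrate dehydrogenase subunit, was at least 5.67-fold higher. In the other direction AT3G30690, annotated as a pseudogene, had no counts in prt6, 0.854 to 1.18 CPM in prt6 erfVII and no counts in Col-0, which makes it at least 9.09-fold lower in prt6. AT3G15440, which encodes a RING/U-box protein, was at least 8.45-fold lower in prt6. It had 0.631 to 1.57 CPM in prt6 erfVII and a mean of 0.148 CPM in Col-0. AT3G15440 lies at 5211795 to 5212506 of chromosome 3, within 2 Mb of both mutated loci RAP2.2 and RAP2.3. The part of linked sequence in its difference was not tested. Counts of all these genes are low, and counting error covers only part of their uncertainty.

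MRD1, among the 10 genes furthest below prt6 erfVII, was also called below the wild type. It had 1.42, 2.59, 0.885 and 2.08 CPM in prt6, against 32.7, 35.6, 38.3 and 32.5 CPM in prt6 erfVII and 31 to 34.6 CPM in Col-0 (log2 fold changes -4.35 ± 0.19 and -4.22). MRD1 starts at position 19963047 of chromosome 1, within 2 Mb of the mutated RAP2.12, which starts at 20134844. The RAP2.12 insertion is carried by prt6 erfVII only, where MRD1 lay near Col-0, and not by prt6, where MRD1 was low. The part of linked sequence in its differences was not tested.

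Seed genes were among the furthest below prt6 erfVII too, but varied between libraries. PAP85, a cupin storage protein, had 0.109, 0.0398, 0.212 and 0.111 CPM in prt6, against 11.1, 1.84, 3.58 and 3.04 CPM in prt6 erfVII, and prt6 erfVII replicate 1 was the highest. M10, a late embryogenesis protein, had 0 to 0.145 CPM in prt6 and 0.642 to 4.64 CPM in prt6 erfVII. M17, a neighbour of M10 on chromosome 2, had 0.119 to 0.354 CPM in prt6 and 1.28 to 16.2 CPM in prt6 erfVII, and its call was lost without any 1 of the 4 prt6 libraries (largest edgeR adjusted p = 0.074). Without prt6 erfVII replicate 1 their log2 fold changes were -4.52 for PAP85 and -3.44 for M17, against -5.31 and -4.72 with it, and that of M10 was -6.93 without prt6 replicate 1, against -5.37 with it. The fixed seed marker list did not share the direction: of 16 markers, 10 had too few counts to test, 0 of the 6 tested were called, and their summed level was 5.17 to 28.6 CPM in prt6 and 2.27 to 128 CPM in prt6 erfVII. Its median log2 fold change was 0.01 with all libraries and 2.18 without prt6 erfVII replicate 1. The part of leftover seed RNA in these differences was not tested.

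Lines built by crossing can also differ in the chromosome next to each insertion, so genes near the mutated loci were counted apart. Of 3929 genes tested within 2 Mb of any of the 6 mutated loci, 30.5% were called and 4.89% were called and changed by over 1 log2 unit. Elsewhere 31.5% of 16928 genes were called and 5.44% also changed by over 1 log2 unit. Taken over all windows together, the shares near the loci were not above those of the rest of the genome. Each window held 551 to 946 genes tested, so a share cannot show whether a few linked genes differed. That was not tested. Beside the mutated loci, 2 of the genes with almost no counts in 1 genotype lay within these windows and 9 lay elsewhere.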

How the data were processed

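Before deposit the authors used skewer for trimming, HISAT2 2.1.0 for alignment against TAIR10 and featureCounts 1.6.0 for assigning uniquely aligned reads to genes (per the labels and the study's methods). The deposited values are raw counts, not normalized, for 37885 genes in 12 libraries, of which 8 enter the main comparison. The strand setting of the counting is not given in the sources used here. No column was left without a sample. Names, coordinates and promoters came from RefSeq TAIR10.1, where 37882 identifiers matched by locus tag and 3 carried a suffix.

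The 2 comparisons had separate fits of 8 libraries, made with edgeR 4.0.16 under R 4.3.3 (TMM, filterByExpr, robust quasi-likelihood F-test, no covariate), as the main test in place of the DESeq2 fit of the study, which was run as an alternative (DESeq2 1.42.0). p-values were adjusted with Benjamini-Hochberg and called under 0.05. The script was tested on simulated data. CPM uses TMM factors of all 12 libraries. Totals ranged from 23156637 to 30582461 counts, no 2 libraries were identical, and p-values measure the spread between the biological replicates so labelled. Python 3.11.15 was used for lists, motifs and plots.

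The members and the gene lists were chosen with earlier results of these data known, so list counts are descriptions and no list was tested. Named genes are the 6 mutated loci, the top 10 called genes by fold each way (libraries not overlapping, and no library of the higher genotype under 10 counts), up to 4 called members of each list in each direction under the same minimum of 10 counts, and all members of the lists of mutated loci and oxygen sensing. Others were named after their values were seen. Of the 197 genes so named, 47 overlap a gene on the opposite strand. Alternatives were DESeq2, other size factors, other filters, 1 fit over 12 libraries, a replicate block, a stricter threshold, leaving out each library, and leaving out genes near the mutated loci. A result that concerns an item withheld for evaluation is not reported here.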

Additional observations from a re-analysis of the deposited data

Results flagged for a closer look

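In 22 of 466 groups of 4 libraries examined (the named genes and the list means, in prt6 and in prt6 erfVII), 1 library stood apart from the other three by Dixon's criterion, and chance alone is set to flag about 1 in 20 groups. No explanation was tested.

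Among prt6 libraries, replicate 4 was the one apart for AT3G29970 (2.82 CPM, against 4.81 to 4.98 in the others), IAA2 (56.5, against 46.7 to 47.5), CHLM (360.6, against 298.6 to 300.7) and PRR7 (24.5, against 34.1 to 35.7). Replicate 2 was apart for EXPA1 (172.4 CPM, against 191.3 to 192.8) and EBF1 (61.7, against 68.9 to 70.3), and replicate 1 for JAZ1 (18.7, against 15.7 to 15.9). For the mean log2(CPM + 1) of whole lists, prt6 replicate 3 was apart for flavonoid and anthocyanin genes (3.81, against 4.29 to 4.32) and prt6 replicate 1 for nitrate genes (5.88, against 5.77 to 5.78).

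Among prt6 erfVII libraries, replicate 1 was apart for WRKY28 (4.19 CPM, against 6.16 to 6.29), PORB (430.0, against 353.4 to 364.0), GLK2 (138.7, against 154.9 to 157.8), UKL3 (42.8, against 48.5 to 49.3) and LHCB1.1 (3333, against 4351 to 4503). It also held the few counts of HRE2 (0.0742 CPM) and IDH-III (0.0371 CPM), which were at 0 in the other three. Replicate 4 likewise held the few counts of AT4G11393 (0.0334 CPM), and replicate 3 was apart for SAD6 (2.53 CPM, against 1.23 to 1.27) and EXPA15 (26.8, against 29.9 to 30.4). For list means, replicate 3 was apart for the circadian clock (5.21, against 5.14 to 5.15), and replicate 4 for iron genes (5.70, against 5.46 to 5.48) and for guard cell and leaf epidermis markers (5.81, against 5.74 to 5.75).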

How the results depend on the processing

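In prt6 against prt6 erfVII, 6524 genes were called, against 6687 with DESeq2, 6515 with other size factors, 6500 without a filter, 6503 with a mean of at least 10 counts, 7138 in 1 fit over 12 libraries and 5223 to 6877 with 1 library left out. At an adjusted p under 0.01, 4356 genes were called, 1941 higher and 2415 lower. In prt6 against Col-0, leaving out 1 library gave 281 to 1231 genes called, 140 to 576 higher and 141 to 655 lower. The lowest counts came without Col-0 replicate 2 (for lower genes also without Col-0 replicate 3, at 141) and the highest without prt6 replicate 4. DESeq2 called 363 lower there, against 228. Leaving out 1 library moved list medians of log2 fold change beyond the replicate spread for 8 lists. The ranges were 0.0058 to 0.15 for auxin response, -0.23 to -0.13 for the circadian clock, 0.40 to 0.81 for flavonoids, -0.39 to 2.18 for seed markers, 0.33 to 0.44 for nitrate, 0.58 to 0.88 for phosphate, -0.27 to 0.073 for salicylic acid and immunity, and 1.64 to 2.06 for sulfur. The cause was not tested.

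Replicate numbers did not pair the libraries, since same-numbered prt6 and prt6 erfVII libraries had correlated deviations of -0.09 to -0.03. With the replicate block 5721 genes were called, 2690 higher and 3031 lower, and 540 in prt6 against Col-0. No named gene that was called changed direction under any alternative. Calls were lost for 2 of 197 named genes with DESeq2, for 13 with the replicate block and for 8 to 18 with 1 library left out. With 4 libraries a genotype, small differences in genes of few counts are at the limit of what this depth can show.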

Other observations

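Of 16 salicylic acid and immunity genes tested, 2 were higher and 6 lower in prt6 than in prt6 erfVII (median log2 fold change -0.13), and 3 were lower without prt6 replicate 2 or 3 or without prt6 erfVII replicate 3 or 4. PR5, a pathogenesis-related protein and 1 of the 2 higher, had 8.53 to 10.8 CPM in prt6 and 4.48 to 6.94 CPM in prt6 erfVII. Among the 6 lower were WRKY53, WRKY40 and WRKY33, with log2 fold changes of -1.10, -0.87 and -0.56. The list shares 5 genes, these among them, with the WRKY factors counted above. Of 11 heat shock and chaperone genes, 0 were higher (1 at an unadjusted p under 0.05, and 0 with DESeq2) and 4 lower. HSFA7A, a heat shock factor, had 9.73 to 12.8 CPM in prt6, 22.4 to 27.6 CPM in prt6 erfVII and 9.57 to 12.5 CPM in Col-0.

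Alternative NADH dehydrogenases of mitochondria, which bypass proton pumping, differed by member. NDB2 had 42.6, 40.1, 33.7 and 37.4 CPM in prt6, against 26.6, 20.4, 24.1 and 22.1 CPM in prt6 erfVII, and NDA2 was 0.58 ± 0.11 log2 units higher in prt6 (edgeR adjusted p = 0.00035). NDA1 had 81.2 to 94.3 CPM in prt6 and 97.7 to 113 CPM in prt6 erfVII. Of the 10 mitochondrial stress genes tested, 4 were higher and 3 lower in prt6, and 1 was lower without prt6 erfVII replicate 1, 3 or 4. Auxin response genes had 2 of 12 higher (16.7%) and 1 lower (8.33%), against 14.7% and 16.6% of all genes tested. Among the auxin genes YUC9, a flavin monooxygenase of auxin synthesis, had 1.91 to 2.87 CPM in prt6 and 0.306 to 1.07 CPM in prt6 erfVII. The higher count was 1 without prt6 replicate 1, 3 or 4 or without prt6 erfVII replicate 2 or 4.

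The floral genes PI and SEP3 were detected in these seedlings. SEP3 had 1.51 to 2.65 CPM in prt6 and 4.19 to 7.25 CPM in prt6 erfVII. PI had 4.68 to 9.44 CPM in prt6, 9.26 to 11.9 CPM in prt6 erfVII and 0.907 to 2.92 CPM in Col-0. PI was thus higher in prt6 than in Col-0 (log2 fold change 2.2), and its call in prt6 against prt6 erfVII was lost without prt6 replicate 2 or without prt6 erfVII replicate 2 or 3 (largest edgeR adjusted p = 0.08).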
